A study of Homo sapiens with 2 samples.

Results

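ISG15 and the enzymes that attach it to proteins and remove it were followed in RWPE-1, an epithelial line of noncancerous human prostate, transfected with pre-miR-424 (30 nM), a synthetic precursor of the microRNA miR-424. Control cells of the same line received a negative control at that dose. The members were ISG15, UBA7, UBE2L6, HERC5, HERC6 and USP18, measured by the probes whose RefSeq accession belongs to one of these genes. The genes were selected on their ratios between pre-miR-424 and control in these same arrays, so that these ratios are given as a description. They comprised 6 of the 19740 genes named on the array and 7 of its 42405 probes, printed as 19 of 58717 spots. RNA of both kinds of cells was hybridised together to 2 Agilent two-colour arrays. On the first array (normal labelling) Cy5 marked the RNA of pre-miR-424 cells and Cy3 that of control cells, and on the dye swap the dyes were exchanged. The arrays are technical replicates and stand for 1 biological sample of each kind, so no p-value was computed. The spread between arrays covers labelling and hybridisation error only.

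ISG15 is a small ubiquitin-like protein that interferons induce strongly in epithelial cells. It is joined to target proteins by a cascade that parallels that of ubiquitin, with UBA7 as activating enzyme (E1), UBE2L6 as conjugating enzyme (E2) and HERC5 as the main human ligase (E3). HERC6 is the closest relative of HERC5. USP18 is the protease that removes ISG15 from its targets, and it also binds the type I interferon receptor and restrains its signalling.

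The precursor that was transfected is that of miR-424, and both of its mature arms are printed because the labels do not name one. The sequences are from RefSeq (GRCh38.p14, minus strand, chrX:134546680-134546701 for the 5p and chrX:134546644-134546664 for the 3p arm), and the capitals mark the seed, bases 2 to 8.
hsa-miR-424-5p: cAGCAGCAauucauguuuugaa
hsa-miR-424-3p: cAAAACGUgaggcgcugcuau

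Promoter windows were searched for a motif because the mean ratios of the members shared a sign. Only those of the 2 members in which the motif was found are printed. Interferon-stimulated genes are known to be switched on through the interferon-stimulated response element. Whether this element bore on the ratios was not tested. Of the 6 members, 4 had a window in the RefSeq promoter set (GRCh38.p14), which spans 250 bases before to 50 after each annotated start. UBA7 and USP18 had none there. The core of that element, GAAA followed by any 2 bases and GAAA again, was searched on both strands, and overlapping matches were counted. It was found in 1255 of 35116 windows of the same length (3.57%), and at least 2 matches in 91 (0.259%). The window of ISG15 (chr1:1013247-1013546, plus strand) held 2 overlapping matches, from position −113 to −98 relative to the start. That of HERC5 (chr4:88456869-88457168, plus strand) held 3 on the other strand, of which 2 overlap, from −125 to −110 and from −74 to −65. Capitals mark the matches, which read as the reverse complement in HERC5.
ISG15: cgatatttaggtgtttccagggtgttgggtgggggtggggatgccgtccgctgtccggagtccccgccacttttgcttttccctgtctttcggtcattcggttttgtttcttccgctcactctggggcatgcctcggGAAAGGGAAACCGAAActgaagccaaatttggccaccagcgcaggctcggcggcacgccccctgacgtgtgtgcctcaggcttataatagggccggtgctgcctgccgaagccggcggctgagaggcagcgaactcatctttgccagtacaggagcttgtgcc
HERC5: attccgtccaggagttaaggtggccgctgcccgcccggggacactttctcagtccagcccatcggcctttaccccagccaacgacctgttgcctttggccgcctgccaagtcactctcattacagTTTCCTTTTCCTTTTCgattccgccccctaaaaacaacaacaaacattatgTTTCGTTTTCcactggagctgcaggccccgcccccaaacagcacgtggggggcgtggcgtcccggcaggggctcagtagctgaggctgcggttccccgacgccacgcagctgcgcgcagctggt

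No match lay in the window of HERC6 or in the pair of windows of UBE2L6. HERC6 is the next protein-coding gene to HERC5 on chromosome 4.

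Each of the 7 probes exceeded the background clearly in every channel by the scanner software's own test, and no spot was saturated. The labelled cell type was checked with 8 markers of basal and luminal prostate epithelium, all of which passed that test. Of 11 markers of leukocytes, fibroblasts, smooth muscle and endothelium, 6 passed it as well, namely PTPRC and CD14 of leukocytes, COL1A1, COL3A1 and DES of fibroblasts and smooth muscle, and CDH5 of endothelium, so that passing it did not set the epithelium apart. CD3E, PDGFRB, PECAM1 and VWF were among those that did not pass. None of these 6 reached 1.5-fold on both arrays, and their mean log2 ratios lay between −0.07 (PTPRC) and 0.15 (CD14). For each gene the brightest probe was taken among those that passed and had no spot marked as an outlier. In this way 13812 genes were measured, 5 of the 6 members among them. HERC5 was left out of this set because 1 of its 10 spots on the normal array carried such a mark, and its values are given here from the other spots. Across the measured genes the SD of the difference between the arrays divided by 2, the error of a mean of both arrays, was 0.16 on the log2 scale.

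The comparison asked whether the RNA of these genes was more or less abundant after transfection of pre-miR-424 than of the control. All ratios are log2 ratios of pre-miR-424 over control after loess normalization within each array, in which 1 equals a 2-fold and 0.585 a 1.5-fold difference. ISG15 and USP18 had the largest ratios of the 6 genes, HERC6, HERC5 and UBE2L6 smaller ones, and UBA7 a ratio near 0. All 5 measured members had ratios above 0 on each array, as had 26.8% of all measured genes. A 1.5-fold difference on both arrays was reached by ISG15 and USP18, thus by 2 of the 5, and by 0.623% of all measured genes. None of the 5 reached 2-fold on both arrays, which 0.0724% of all measured genes did. With median centring in place of loess, ISG15 and USP18 no longer reached 1.5-fold on both arrays, and 0.34% of all measured genes were higher by that fold. The median over the 5 members was 0.56 (0.49 with normal labelling and 0.64 on the swap), beside −0.004 over all measured genes, and with HERC5 it was 0.53. Since the genes were selected on these ratios, the counts are no independent evidence of a direction.

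**Figure D1:**
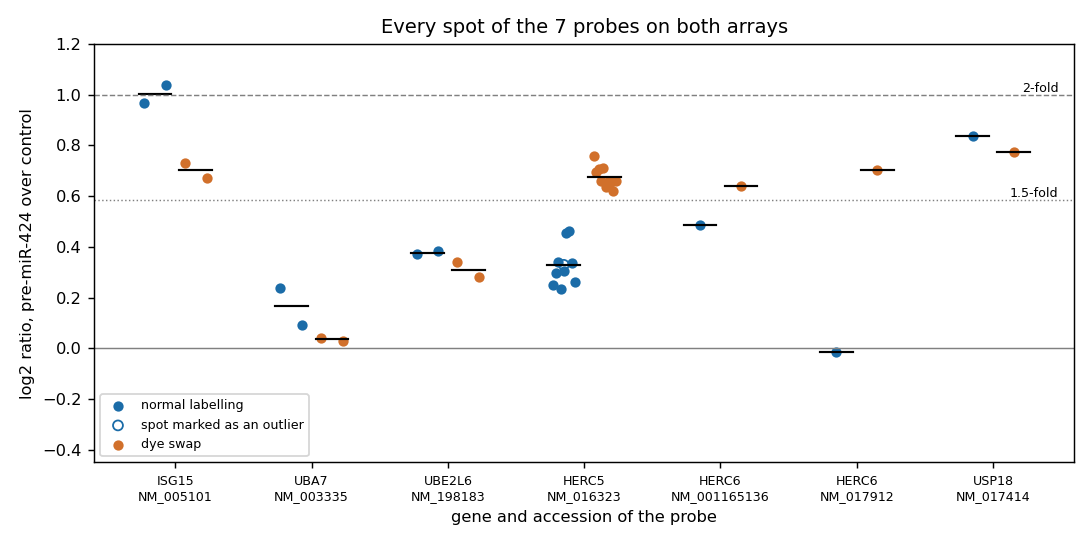
Log2 ratio of pre-miR-424 over control (y axis) at each spot of the 7 probes (x axis, gene and accession), with blue points for normal labelling, orange points for the dye swap, an open circle for the 1 spot marked as an outlier and black bars for means. The spots of ISG15 and USP18 lay above the 1.5-fold line on both arrays, the 10 spots of HERC5 on the swap lay above those of the normal array, and one probe of HERC6 was at −0.01 on the normal array.

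The modifier itself was measured by 1 probe (NM_005101) printed as 2 spots. Its mean spot signal, in scanner units, was 59228 with pre-miR-424 and 16317 with control on the normal array, and 28407 and 40878 on the swap. Cy5 gave stronger signals than Cy3 on both arrays (medians over all spots of 290 and 314 against 189 and 165), so that levels were compared within a dye. Within either dye the pre-miR-424 signal was the higher, with a ratio of 1.45 in Cy5 and 1.74 in Cy3. The signals of one dye come from different arrays and are not normalized. After normalization the log2 ratio of ISG15 was 1.00 with normal labelling and 0.70 on the swap, with spot SDs of 0.051 and 0.042. The mean was 0.85 ± 0.21 (SD between arrays, n = 2), a 1.8-fold difference, and ranked 38 among 13812 genes. The difference between its arrays exceeded the spread of its spots within an array. The size on each array depended on the loess step: with centring on the median alone the ratios of ISG15 were 1.42 and 0.17. That setting moved the median of all genes to 0.13 and −0.226, relative to which they were 1.29 and 0.40.

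The activating enzyme UBA7 (NM_003335, 2 spots) gave signals of 582 with pre-miR-424 and 344.5 with control on the normal array, and of 320.8 and 598.8 on the swap. Within a dye the pre-miR-424 signal was slightly the lower one, at 0.972 of control in Cy5 and 0.931 in Cy3. The medians over all spots were also lower in the pre-miR-424 channels, at 290 against 314 in Cy5 and 165 against 189 in Cy3. The normalized log2 ratio of UBA7 was 0.17 with normal labelling and 0.03 on the swap, a mean of 0.10 ± 0.09 (SD, n = 2) or 1.07-fold. This was below the error of 0.16 for a mean of both arrays, and 24.7% of the measured genes had a higher mean. A difference of UBA7 was therefore not detectable on these arrays.

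The conjugating enzyme UBE2L6 was measured by a probe for the transcript NM_198183 (2 spots). Its signals were 19429.5 with pre-miR-424 and 9095.2 with control on the normal array, and 9720.5 and 16535 on the swap, so that pre-miR-424 was the higher in each dye, by 1.18 in Cy5 and 1.07 in Cy3. The log2 ratios were 0.38 and 0.31, with a mean of 0.34 ± 0.05 (SD, n = 2), a 1.27-fold difference at rank 516 of 13812. The arrays differed here by less than for ISG15, HERC5 or HERC6. With median centring the sign depended on the array, with 0.65 and −0.07, or 0.52 and 0.16 relative to the shift of all genes.

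**Figure D2:**
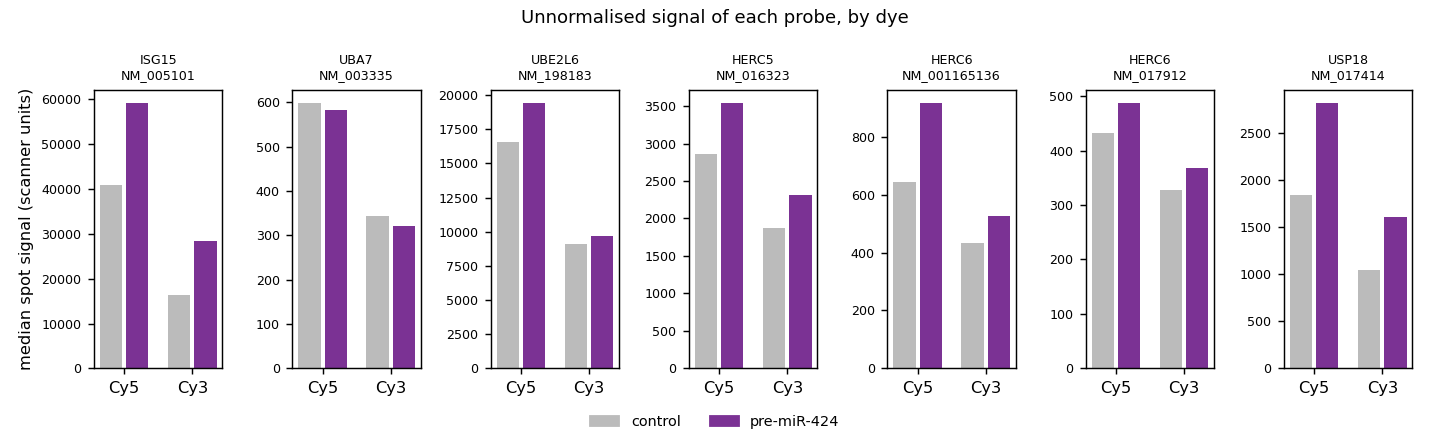
Mean of the median spot signals (y axis, scanner units, not normalized, each panel with its own scale from 0) of the 7 probes, with control in grey and pre-miR-424 in purple, paired by dye (x axis). Bars of one dye come from different arrays. The pre-miR-424 bar was the taller in both dyes in every panel except that of UBA7, at 0.972 and 0.931 of control.

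The ligase HERC5 (NM_016323) was the member with most spots, 10 on each array. On the normal array, where 9 spots had no outlier mark, the log2 ratios ran from 0.23 to 0.46 with a median of 0.30. On the swap, the 10 spots ran from 0.62 to 0.76 with a median of 0.66. All spots were above 0, and those of one array did not overlap those of the other. The means were 0.33 and 0.68, with spot SDs of 0.084 and 0.041, and the mean of both was 0.50 ± 0.25 (SD, n = 2), a 1.42-fold difference. The unnormalized signals were 1.24 times higher with pre-miR-424 in both Cy5 (3542.6 against 2856.1) and Cy3 (2316.6 against 1868.8). With median centring the ratios of HERC5 were 0.47 and 0.40. These values include the shift of all genes under that setting, to medians of 0.13 and −0.226. Their closeness is therefore no sign that the arrays agreed better than after loess.

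HERC6 was measured by probes for 2 of its transcripts, each printed as 1 spot. The brighter probe (NM_001165136) gave signals of 916.5 with pre-miR-424 and 433 with control on the normal array, and 526 and 643 on the swap. Its log2 ratios were 0.49 and 0.64, with a mean of 0.56 ± 0.11 (SD, n = 2), a 1.48-fold difference at rank 155 of 13812. The dimmer probe (NM_017912) gave signals of 487.5 and 328 on the normal array and 368 and 432 on the swap. Its log2 ratios were −0.01 and 0.70, so that the probes gave like values on the swap and differed on the normal array. The SD between arrays of the dimmer probe was 0.51, larger than its mean of 0.34, and the mean over both probes was 0.45.

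The protease USP18 (NM_017414, 1 spot) gave signals of 2817 with pre-miR-424 and 1041.5 with control on the normal array, and of 1611 and 1841.5 on the swap. Within a dye, pre-miR-424 was higher by 1.53 in Cy5 and 1.55 in Cy3. The log2 ratios were 0.84 and 0.77, with a mean of 0.81 ± 0.04 (SD, n = 2), a 1.75-fold difference at rank 47 of 13812. Of the 6 genes, USP18 was the one whose arrays lay closest together, and it passed the 1.5-fold threshold on both arrays under loess. With median centring its ratios were 0.97 and 0.52, or 0.84 and 0.75 relative to the shift of all genes. USP18 has a close copy on chromosome 22, the pseudogene USP41P, for which no named probe was found. Whether RNA of USP41P also bound this probe was not tested.

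In the order of the mean log2 ratios, ISG15 (0.85) and USP18 (0.81) lay within their spread between arrays, as did HERC6 (0.56) and HERC5 (0.50). USP18 and HERC6 differed by more than either one's SD between arrays, whereas the gap from HERC5 to UBE2L6 (0.34) was smaller than the SD of HERC5. The ratio of UBA7 (0.10) differed from that of UBE2L6 (0.34) by more than either one's SD between arrays. Each of these SDs rests on 2 technical arrays, and the error of a mean across all measured genes was 0.16. The dimmer probe of HERC6 had a mean of 0.34 with an SD of 0.51. The order of neighbouring genes was therefore not resolved.

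**Figure D3:**
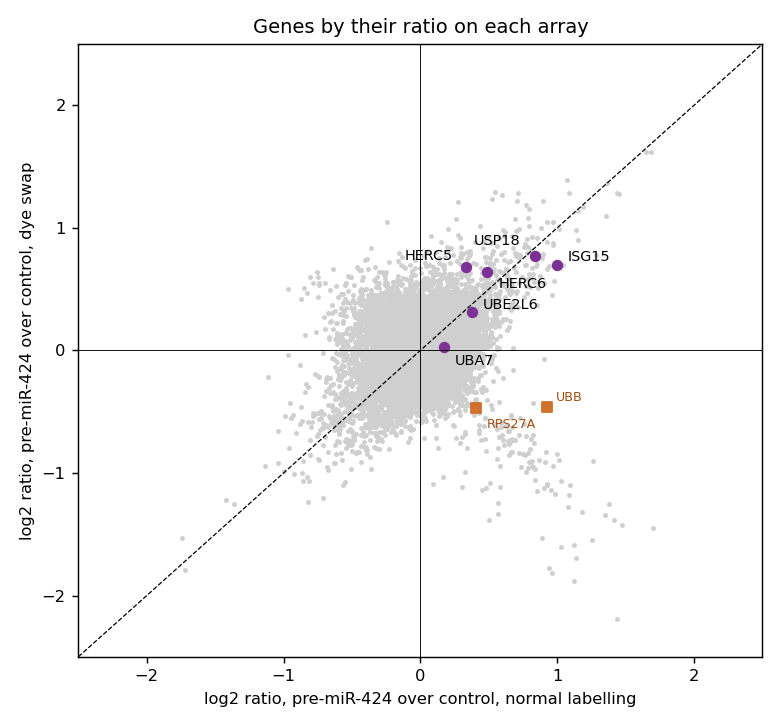
Log2 ratio of pre-miR-424 over control on the array with normal labelling (x axis) and on the dye swap (y axis) for the 13812 measured genes (grey) and HERC5, with the 6 members in purple, the ubiquitin genes UBB and RPS27A in orange squares and the line of equal ratios dashed. The members lay above 0 on both axes, with UBE2L6 and USP18 nearest to the line and HERC5 and ISG15 farther from it on opposite sides, whereas UBB at 0.92 and −0.46 lay on the side where the ratio followed the dye.

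Genes of ubiquitin itself, to which ISG15 is related, had ratios that followed the dye rather than the RNA. UBB, which encodes a chain of ubiquitin units, had log2 ratios of 0.92 and −0.46. RPS27A, which encodes ubiquitin fused to a ribosomal protein, had 0.41 and −0.47. Their sign turned with the labelling, as for 16 genes that were at least 2-fold higher in Cy5 on both arrays. The component that followed the dye, the difference between the arrays divided by 2, was 0.15 for ISG15, −0.17 for HERC5, −0.36 for the dimmer probe of HERC6, and between −0.08 and 0.07 for its brighter probe and those of UBA7, UBE2L6 and USP18.

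The 13 ubiquitin pathway relatives of the members, which comprised ubiquitin genes, other E1 enzymes, the E2 UBE2L3 and the large HERC proteins, were all measured. None was higher and 2 were lower on both arrays, beside 26.8% and 26.7% of all measured genes. None passed 1.5-fold in either direction, beside 0.623% higher and 0.391% lower among all measured genes, nor 2-fold, beside 0.0724% and 0.029%. Their median was 0.03. UBA1, the main E1 of ubiquitin and a relative of UBA7, had −0.49 and −0.73, and HERC1, a large HERC protein, −0.25 on both arrays. The highest means were those of UBB (0.23) and HERC3 (0.14, with −0.17 and 0.44), whose arrays disagreed in sign.

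Among other ubiquitin-like modifiers, 15 of 16 genes were measured, of which 3 were higher and 4 lower on both arrays (26.8% and 26.7% of all measured genes) and none passed 1.5-fold on both. Among all measured genes, 0.623% were higher and 0.391% lower by 1.5-fold. The median of the 15 was 0.01. OASL, an interferon-induced protein that carries ubiquitin-like domains, had the highest ratios, 0.71 and 0.49 (mean 0.60 ± 0.16 SD, n = 2), followed by MAP1LC3B, an autophagy modifier, with 0.08 and 0.35. The lowest were those of SUMO3 (−0.50 and −0.28) and URM1 (−0.04 and −0.24). In this list, OASL came closest to ISG15.

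Type I interferons act on these genes through a transcription factor complex whose DNA-binding subunit is IRF9. IRF9 gave 0.70 and 0.64 (mean 0.67 ± 0.04 SD, n = 2), 1.59-fold, and passed 1.5-fold on both arrays. STAT2, another subunit, which also brings USP18 to the receptor, gave 0.62 and 0.54 (mean 0.58 ± 0.05 SD, n = 2).

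The list of 14 other genes of the ISG15 pathway held further ligases, receptors, proteases that accept ISG15, and STAT2, among others. Of these genes, 11 were measured, with 6 higher and 3 lower on both arrays (26.8% and 26.7% of all measured genes). None of the 11 passed 1.5-fold, beside 0.623% higher and 0.391% lower among all measured genes. The median of the 11 was 0.06. After STAT2, the highest mean was that of ITGB2, a subunit of the receptor for free ISG15, with 0.08 and 0.44. TRIM25, another reported ISG15 ligase, gave 0.35 and 0.06. The proteases USP14 (−0.49 and −0.19) and USP5 (−0.20 and −0.40), which can act on ISG15 besides ubiquitin, were the lowest.

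Of 18 proteins known to be modified by ISG15, the genes of 16 were measured, with 10 higher and 2 lower on both arrays (26.8% and 26.7% of all measured genes) and a median of 0.11. MX1, an antiviral GTPase, had 1.45 and 1.28. It was the one gene of the list that passed 1.5-fold and 2-fold, beside 0.623% and 0.0724% of all measured genes higher by these folds. The lowest of the list were MAPK3 (−0.49 and −0.58), which encodes the kinase ERK1, and UBE2E2 (−0.34 and −0.17), an E2 of ubiquitin.

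**Figure D4:**
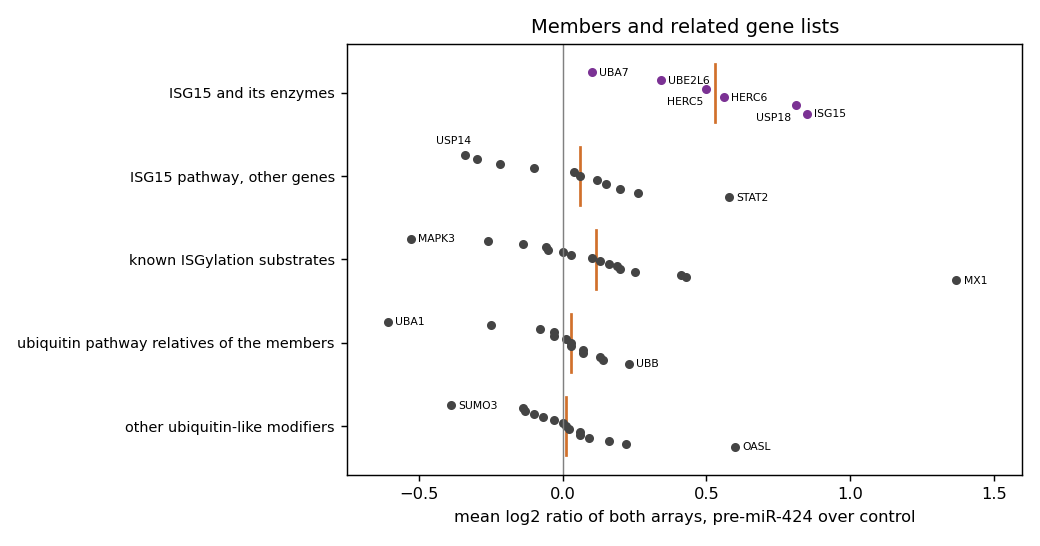
Mean log2 ratio of both arrays (x axis) for each gene of the members (purple, HERC5 included) and of the related lists (dark grey), with an orange bar at the median of each row and the outermost genes named. The medians were 0.53 for the 6 members and between 0.01 and 0.11 for the related lists drawn here, which do not hold IRF9 (0.67).

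The genes most like ISG15 were those whose pair of ratios lay nearest to its own over the 2 arrays, by Euclidean distance on the log2 scale. Apart from members, they were IRF7 (distance 0.037, ratios 1.04 and 0.69), a transcription factor of the interferon response, CYBRD1 (0.040), an iron reductase, TAF15 (0.060), an RNA-binding protein, the cytokine IL6 (0.087) and PPP3R1 (0.126), a subunit of calcineurin. Averaged over its probes, CYBRD1 had 0.57 in place of 0.87. With 2 arrays, likeness rests on 2 values per gene.

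**Figure D5:**
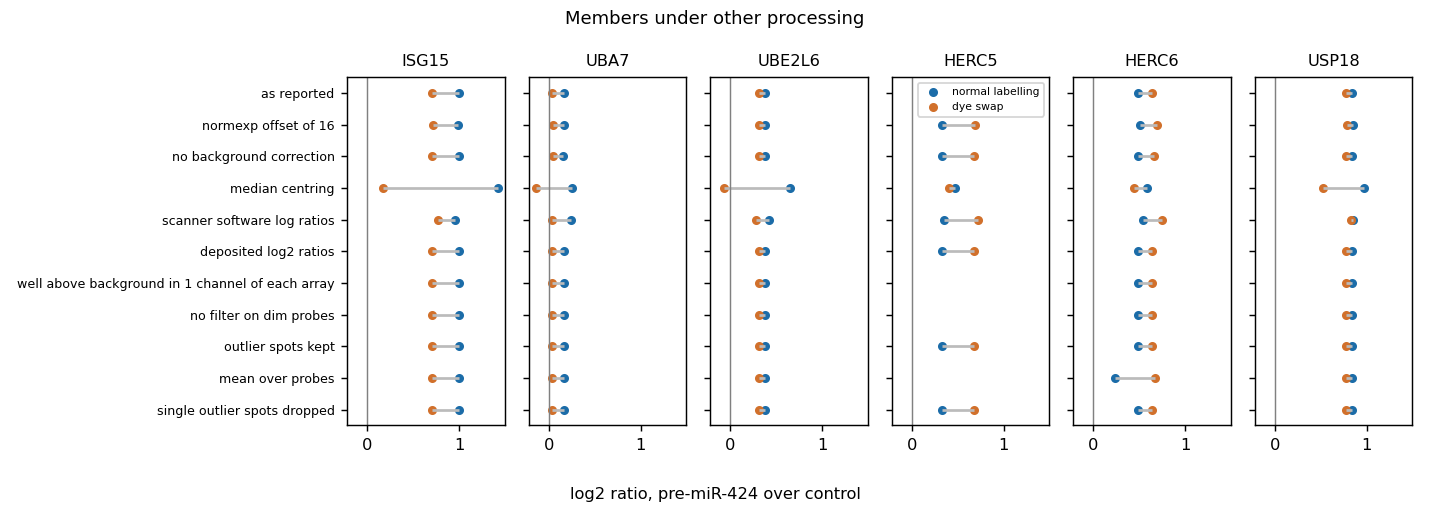
Log2 ratios of pre-miR-424 over control (x axis) of the 6 members on the array with normal labelling (blue) and on the dye swap (orange) under each way of processing (y axis), with HERC5 shown where it had a value. Median centring gave 1.42 and 0.17 for ISG15, where the arrays lay farthest apart, and 0.47 and 0.40 for HERC5. These values include the shift of all genes under that setting. The means of all 6 genes stayed above 0 in the settings drawn for each.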

How the data were processed

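The scanner files deposited by the authors hold, per spot and dye, the median pixel intensity and its local background on a linear scale, not normalized, from Feature Extraction 10.7.3.1. The same deposited files hold processed intensities and a log10 ratio (Cy5 to Cy3). A deposited table gives log2 ratios, made with limma per the labels by steps not given in the sources used here. Against the ratios computed here its columns were Cy5 to Cy3 on each array, with the swap unturned (r = 0.991 and 0.988 across probes).

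In limma 3.58.1 (R 4.3.3), background was corrected by normexp with an offset of 50, which draws ratios of dim probes towards 0, and each array was normalized by loess without control spots. Each probe was the mean of its spots, and the sign of the swap was turned. Measured probes were well above background in all channels (25664 of 42405). Genes were named from RefSeq (25771 of the 27134 probes with a RefSeq accession, 95.0%). The deposited log2 ratios and the scanner software's log10 ratios served as alternatives, and its processed intensities were not used. Some genes of these lists are not reported here.

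The members and lists were chosen with earlier results of these data known. Named were all member probes, list genes past 1.5-fold, the 2 highest and 2 lowest of each list, and the 5 genes nearest to ISG15. TRIM25 and RPS27A, beyond this rule, were named with their values already known. On simulated arrays of 25664 probes, a log2 change of 0.9 passed 1.5-fold in 93.0% of 100 probes and one of 1.5 passed 2-fold in all 97, with 0 other calls. The alternatives changed the background correction, normalization, source of the ratios, filters, arrays, gene rule and fold. Python 3.11.15 with pandas 2.3.3 and numpy 2.4.6 was used.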

Additional observations from a re-analysis of the deposited data

How the results depend on the processing

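The log2 ratios of the 6 members, as means of both arrays or, after loess, on a single array, were above 0 under the alternatives run for each gene, from 0.70 to 1.00 for ISG15, 0.75 to 0.84 for USP18, 0.45 to 0.64 for HERC6, 0.44 to 0.53 for the means of HERC5 (0.33 and 0.68 on single arrays), 0.29 to 0.38 for UBE2L6 and 0.03 to 0.17 for UBA7. The median of the measured members lay between 0.45 and 0.64. The 5 members higher on both arrays became 3 under median centring, under which the arrays correlated at −0.139 across genes in place of 0.207, and the 2 past 1.5-fold became 0. Of all measured genes, 0.34% were higher by 1.5-fold on both arrays under median centring, in place of 0.623% after loess. Relative to the median of all genes under that setting, 5 of 5 members were higher and 1 (USP18) passed 1.5-fold. The shares of all genes past the same rules relative to that median were not computed, nor that of genes higher by any size under median centring. The count past 2-fold, 0 on both arrays, was 2 at a threshold of 1.5-fold and 0 to 1 with a single array (ISG15 with normal labelling alone). Over all probes, 36 passed 2-fold, against 67 with the scanner software's ratios, 218 at 1.5-fold, and 86 and 133 with single arrays. Over all genes, 10 were higher and 4 lower by 2-fold, against 6 and 5 under median centring, 35 and 8 on the normal array alone and 28 and 48 on the swap alone. The values of HERC5 under other normalizations, with its marked spot dropped, and those of other named genes and lists were chosen after seeing the data. Each ratio already pairs the RNA of pre-miR-424 and control cells within an array. No paired test was possible because the arrays count as 1 replicate. The number of arrays limits the precision, and the offset limits the ratios of dim probes such as those of UBA7 and HERC6.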
